A study of Mus musculus with 22 samples.

Results

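Collagens are the triple-helical proteins that give the extracellular matrix its strength, and each molecule is a trimer of chains that come from 1 or several genes. Fibrillar collagens (types I, II, III, V, XI, XXIV and XXVII) assemble into the banded fibers that accumulate in a scarred liver. Type IV chains form the sheet of basement membranes, FACIT collagens (fibril-associated collagens with interrupted triple helices) decorate fibrils, and the others form beaded filaments, hexagonal networks, transmembrane proteins or, as multiplexins, proteoglycans of basement membranes. In the liver, stellate cells and portal fibroblasts are the main known source of fibrillar chains, whereas hepatocytes are known to express Col18a1, whose carboxyl-terminal fragment is endostatin. The chains were taken from the count table by symbol, as every gene named Col followed by a type number, the letter a and a chain number. This gave 44 of 55573 genes: 11 fibrillar, 6 type IV, 9 FACIT and 18 other chains. Of these, 24 had a mean of at least 10 counts over the 22 libraries and were tested, among 14062 genes tested in all: 8 fibrillar, 5 type IV, 4 FACIT and 7 other chains.

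The libraries were mRNA-seq of whole liver from C57BL/6 mice aged 3 months, 1 library per mouse. Cre mice carried wild-type Flcn and 1 copy of the Albumin-Cre transgene, and FLCN KO mice carried floxed Flcn on both alleles together with Albumin-Cre, so the recombinase was present in both genotypes and was driven in hepatocytes rather than in the cells that make most fibrillar collagen. Each genotype was fed chow (Cre n = 6, FLCN KO n = 5) or a methionine/choline deficient diet, abbreviated MCD (Cre n = 5, FLCN KO n = 6), for 6 weeks from 6 weeks of age. The comparisons address whether the fibrosis-inducing diet changed collagen transcripts and whether loss of folliculin (FLCN) in hepatocytes altered that response. Counts per library ranged from 13751347 to 21144388, and levels are given as CPM, which are counts scaled to library size and composition by TMM.

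Flcn itself, the targeted gene, had a lowest, median and highest level of 26.1, 31.8 and 40.2 CPM in the Cre Chow libraries and 31.7, 18.2, 39.9, 32.5 and 23.6 CPM in the Cre MCD libraries. In the FLCN KO Chow libraries it stood at 24.2, 20.0, 16.7, 19.4 and 21.8 CPM, and in the FLCN KO MCD libraries at 17.6, 26.6 and 32.6 CPM (lowest, median, highest). Every FLCN KO Chow library lay below every Cre Chow library (log2 fold change -0.63 ± 0.17 SE, adjusted p = 0.0249), whereas the genotypes overlapped on MCD (-0.16 ± 0.17, adjusted p = 0.567). The count covers the whole gene and all cell types of the liver, so it is not a measure of the deleted part in hepatocytes.

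Several libraries stood apart. Cre MCD 3 carried RNA of skeletal muscle: the 15 listed muscle genes, all tested, summed to 3840 CPM there, against 183 CPM in Cre MCD 4, 88.1 CPM in FLCN KO MCD 3 and at most 24.0 CPM in any other library, with Myh1, a fast myosin heavy chain, the most abundant on average. Sex, read from Xist and the Y-linked Ddx3y, was mixed in every group, with 3 females and 3 males in Cre Chow and FLCN KO MCD and 3 females and 2 males in Cre MCD and FLCN KO Chow. The female libraries had 0 to 378 counts of Ddx3y, with 378 in Cre MCD 1, 263 in FLCN KO Chow 2, 113 in FLCN KO MCD 3, 97 in FLCN KO Chow 4 and 93 in Cre Chow 2, against at least 703 counts in every male library. The 5 chow libraries with a share of uniquely mapped reads under 75% were the 5 male chow libraries, so on chow sex and mapping share cannot be told apart. A fit without these low-mapping libraries sets female chow mice against MCD mice of both sexes, so diet and sex are mixed in it. The counts of chains with MCD in Cre mice and between genotypes on MCD are also given without Cre MCD 1, the female library with the most Ddx3y, and Cre MCD 3.

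The balance of rises and falls with the diet differed between the genotypes. In Cre mice 12 of the 24 tested chains rose with MCD and 4 fell, against 29.3% of all tested genes that rose and 28.2% that fell, and the median log2 fold change of the chains was 1.08 against 0.01 over all tested genes. In FLCN KO mice 4 chains rose and 10 fell, against 22.5% of all genes that rose and 22.5% that fell, with a median of -0.49 against 0.00. The test of the difference itself, the genotype by diet interaction, called 11 chains lower and 1 higher, against 5.54% of all genes lower and 3.29% higher, with a median of -1.08 against 0.03. Col4a3, counted among the 10 falls in FLCN KO mice and the 11 lower interactions, passed the filter only through its FLCN KO Chow counts. In whole liver, more or fewer cells of a type and more or less RNA per cell cannot be told apart. Groups that did not overlap were seen for 10 chains above and 3 below in Cre mice (15.6% and 16.9% of all tested genes) and for 3 above and 6 below in FLCN KO mice (14.4% and 14.8%). In the female libraries alone, 11 chains rose and 6 fell in Cre mice and 1 rose and 13 fell in FLCN KO mice. In that fit 26.3% of all tested genes rose and 26.1% fell in Cre mice, and 20% rose and 20.8% fell in FLCN KO mice. In the male libraries alone, 15 rose and 3 fell in Cre mice (18.3% and 15% of all tested genes). There 5 rose and 6 fell in FLCN KO mice (9.3% and 11.4%), and the male median turned positive (0.20, against -0.77 in females). The interaction median was -1.10 in females and -1.11 in males, with 10 and 3 chains lower (5.45% and 0.412% of all tested genes). Without Cre MCD 1 and Cre MCD 3 together, 11 chains rose and 5 fell in Cre mice with a median of 0.80 (27.7% and 26.9% of all tested genes), and the interaction called 10 chains lower (3.96%).

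**Figure D1:**
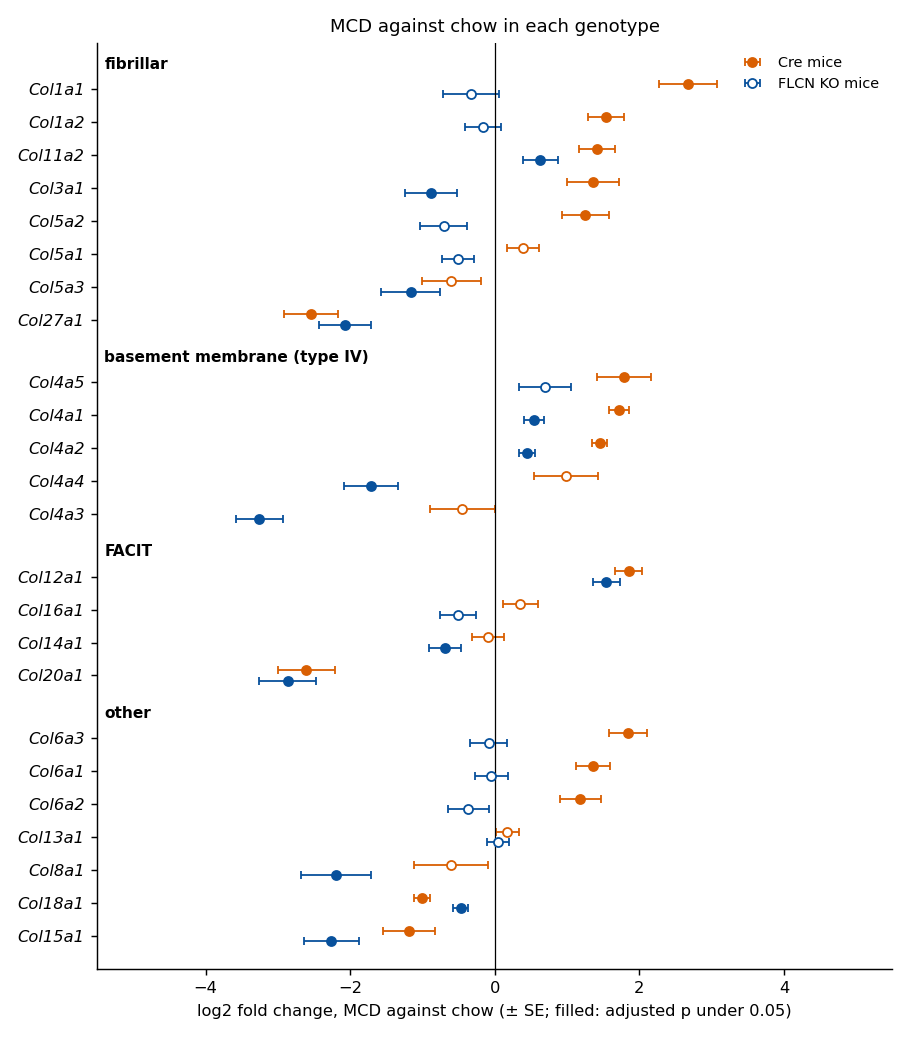
log2 fold change of each tested collagen chain with MCD against chow (x axis, ± SE) in Cre mice (orange) and FLCN KO mice (blue), grouped by class on the y axis, with filled points where the adjusted p was under 0.05. The fibrillar chains Col1a1, Col1a2, Col3a1 and Col5a2 and the type VI chains lie to the right of 0 in Cre mice and at or left of 0 in FLCN KO mice, whereas Col12a1, Col20a1 and Col27a1 have nearly the same position in both.

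Type I collagen, the most abundant protein of fibrotic septa, is made of pro-alpha chains from Col1a1 and Col1a2. Col1a1 had a lowest, median and highest level of 2.77, 3.98 and 8.88 CPM in the Cre Chow libraries and stood at 37.6, 16.0, 41.0, 39.2 and 15.8 CPM in the Cre MCD libraries. In the FLCN KO Chow libraries it stood at 11.6, 7.19, 3.56, 19.7 and 13.2 CPM, and in the FLCN KO MCD libraries it ran from 4.15 to 14 CPM with a median of 8.58 CPM. Every Cre MCD library was above every Cre Chow and every FLCN KO MCD library. The FLCN KO diets overlapped. Col1a1 thus rose in Cre mice by a log2 fold change of 2.67 ± 0.40 (adjusted p = 9.36e-06), the largest rise among the tested chains, and its change in FLCN KO mice was -0.32 ± 0.39 (adjusted p = 0.52). The interaction was -2.99 ± 0.55 (adjusted p = 0.00272), and it was -2.91 in the female libraries and -3.17 in the male libraries (adjusted p = 0.0143 and 0.0437). On MCD Col1a1 was lower in FLCN KO than in Cre mice (-1.76 ± 0.38, adjusted p = 0.00309).

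Col1a2 moved less. It ran from 9.41 to 18.9 CPM with a median of 13.6 CPM in the Cre Chow libraries and stood at 45.3, 21.1, 53.9, 48.2 and 27.5 CPM in the Cre MCD libraries. In the FLCN KO Chow libraries it stood at 18.4, 14.7, 12.8, 26 and 23.4 CPM, and in the FLCN KO MCD libraries it ran from 11.5 to 23.8 CPM with a median of 16.4 CPM. The Cre diets did not overlap and the FLCN KO diets did. Col1a2 rose in Cre mice by 1.53 ± 0.25 (adjusted p = 2.55e-05), was at -0.16 ± 0.25 in FLCN KO mice (adjusted p = 0.623), and had an interaction of -1.70 ± 0.35 (adjusted p = 0.00556). Per kilobase of annotated mRNA, the ratio of the Col1a1 to the Col1a2 level was 0.301 ± 0.0634 (SD) in Cre Chow, 0.675 ± 0.0910 in Cre MCD, 0.491 ± 0.161 in FLCN KO Chow and 0.456 ± 0.0869 in FLCN KO MCD. The Cre MCD ratios (0.520 to 0.749) lay above all Cre Chow ratios (0.261 to 0.425), so the chains of type I collagen did not rise in step.

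Col3a1 encodes the only chain of type III collagen, which forms reticular fibers. It ran from 16.3 to 42.6 CPM with a median of 27.4 CPM in the Cre Chow libraries and stood at 88.8, 29.6, 115, 78.2 and 39.2 CPM in the Cre MCD libraries, the highest being the muscle-carrying library. In the FLCN KO Chow libraries it stood at 33.9, 35.2, 25.4, 60.4 and 65.7 CPM, and in the FLCN KO MCD libraries it ran from 11.6 to 40.6 CPM with a median of 25.4 CPM. Both diet comparisons overlapped. Col3a1 rose in Cre mice (1.36 ± 0.36, adjusted p = 0.00273) and fell in FLCN KO mice (-0.89 ± 0.36, adjusted p = 0.049), with an interaction of -2.25 ± 0.51 (adjusted p = 0.00971). The fall lost its call when any of 14 of the 22 libraries was left out, and in the male libraries alone the change in FLCN KO mice was 0.085 (adjusted p = 0.85), against -1.75 in females (adjusted p = 0.00363). The rise in Cre mice was 0.63 in females (adjusted p = 0.184), 2.26 in males (adjusted p = 0.000156) and 0.84 without Cre MCD 1 and Cre MCD 3 (adjusted p = 0.0689). Relative to Col1a1, the Col3a1 level per kilobase was 6.53 ± 1.18 times as high in Cre Chow, 2.45 ± 0.414 in Cre MCD, 4.90 ± 1.83 in FLCN KO Chow and 2.87 ± 0.566 in FLCN KO MCD.

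**Figure D2:**
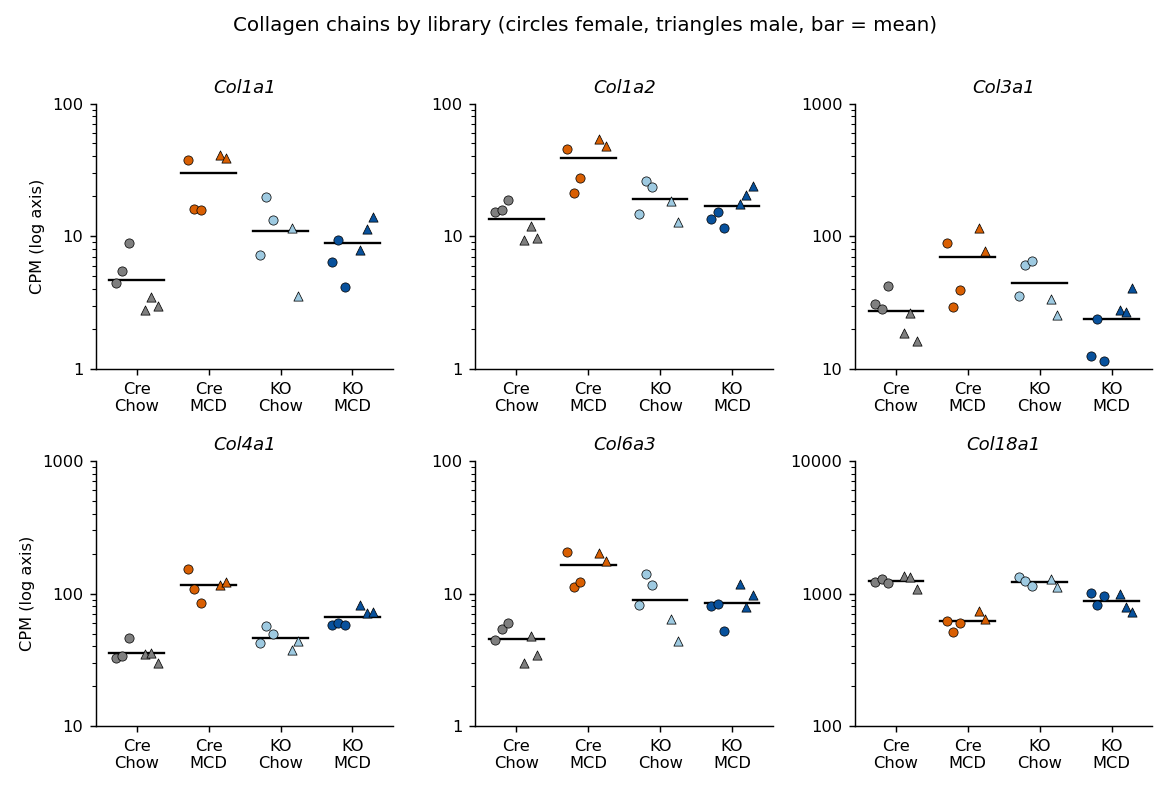
Level in CPM (y axis, log scale) of 6 collagen chains in each library (x axis, the 4 groups), with circles for female mice, triangles for male mice and a bar at the group mean. Col1a1 lies between 15.8 and 41.0 CPM in the Cre MCD libraries and between 4.15 and 14 CPM in the FLCN KO MCD libraries, and Col18a1 is the chain in which the Cre MCD libraries lie lowest.

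Because Col1a2 and Col3a1 both rose with the diet in Cre mice, the 130 bases before their start sites are shown, from RefSeq sequence of GRCm38.p6 on the plus strand (chr6:4505488-4505617 for Col1a2 and chr1:45311408-45311537 for Col3a1). The capitals mark the letters CCAAT, with a first base 109 bases before the Col1a2 start. In Col3a1 they mark the letters TATAAA, with a first base 117 bases before the start. GENCODE M21 places the start of the Col1a2 gene at chr6:4504814, so in that annotation the printed Col1a2 bases lie within the gene.
Col1a2: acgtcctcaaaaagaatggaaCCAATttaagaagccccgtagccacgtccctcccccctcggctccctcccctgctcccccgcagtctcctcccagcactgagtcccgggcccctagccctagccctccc
Col3a1: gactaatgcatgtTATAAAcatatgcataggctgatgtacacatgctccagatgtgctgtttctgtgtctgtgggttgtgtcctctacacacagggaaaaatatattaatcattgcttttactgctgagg
In windows of 300 bases around the start (250 before and 50 after), searched on both strands, CCAAT or its complement ATTGG was found for 7 of the 19 tested chains with a window, against 37.4% of all 32851 windows. TATAAA or TTTATA was found for 3 chains (13.6% of windows), the GC box GGGCGG or CCGCCC for 12 (35.7%), and the palindromic E-box CACGTG, a core that TFEB and TFE3 are known to bind, for 0 (7.15%). A match in these letters is a description of the window only.

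Type V collagen regulates the diameter of type I fibrils, and its chains did not move alike. Col5a2 ran from 0.949 to 4.32 CPM in the Cre Chow libraries, stood at 8.32, 5.04, 11.4, 6.40 and 5.12 CPM in the Cre MCD libraries, at 3.11, 4.40, 2.22, 5.18 and 6.68 CPM in the FLCN KO Chow libraries, and ran from 1.89 to 4.18 CPM in the FLCN KO MCD libraries. Col5a2 rose in Cre mice without overlap (1.25 ± 0.32, adjusted p = 0.00226). In FLCN KO mice it was at -0.71 (adjusted p = 0.0827), with -1.30 in females (adjusted p = 0.000877) and 0.21 in males (adjusted p = 0.774). Col5a2 had an interaction of -1.96 ± 0.46 (adjusted p = 0.0118). That interaction was not called in 1 of 11 other alternatives, which were other methods, settings or subsets of libraries (adjusted p = 0.201). Col5a1 did not pass the test with diet in either genotype (0.39 ± 0.22 in Cre and -0.51 ± 0.22 in FLCN KO mice, adjusted p = 0.137 and 0.0684). It did pass in Cre males alone (1.10, adjusted p = 0.00408) and in FLCN KO females alone (-0.76, adjusted p = 0.0137). Its level on MCD was lower in FLCN KO than in Cre mice (-0.65 ± 0.22, adjusted p = 0.0473). That call was lost when any of 12 of the 22 libraries was left out and in 4 of 12 other alternatives.

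Col5a3, the third chain of type V, and Col27a1, the chain of type XXVII collagen of cartilage, differed between male and female libraries on chow. The male chow libraries were also the low-mapping ones, so sex and mapping share cannot be told apart for this difference. Col5a3 stood at 53.8 to 68.3 CPM in the 3 male and 10.8 to 20.0 CPM in the 3 female Cre Chow libraries, and at 54.1 to 75.3 CPM in the 2 male and 20.4 to 24.9 CPM in the 3 female FLCN KO Chow libraries. On MCD it ran from 16.5 to 32.7 CPM in Cre mice and from 14.8 to 20.8 CPM in FLCN KO mice, and the sexes overlapped. Its change with MCD in Cre mice was accordingly -1.36 in males (adjusted p = 0.0019) and 0.75 in females (adjusted p = 0.0222), with -0.60 ± 0.41 in the pooled fit (adjusted p = 0.217). In FLCN KO mice Col5a3 fell in the pooled fit (-1.16 ± 0.41, adjusted p = 0.0243) and was at -0.37 in females (adjusted p = 0.25). Leaving out either male FLCN KO Chow library, 1 or 3, ended that call.

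Col27a1 stood at 33.0 to 38.8 CPM in male and 12.1 to 17.5 CPM in female Cre Chow libraries, and at 17.6 to 30.7 CPM in male and 7.98 to 14.4 CPM in female FLCN KO Chow libraries. Its MCD levels were 3.54 to 6.98 CPM in Cre mice and 2.71 to 5.73 CPM in FLCN KO mice, below every chow library of the same genotype in both sexes. Col27a1 fell by 2.54 ± 0.37 on the log2 scale in Cre mice (adjusted p = 7.42e-06) and by 2.07 ± 0.36 in FLCN KO mice (adjusted p = 8.46e-05), with an interaction of 0.47 ± 0.50 (adjusted p = 0.624). Col11a2, a chain of type XI collagen, was rare (0.913 to 1.35 CPM in Cre Chow) and rose in Cre mice (1.42 ± 0.25, adjusted p = 5.79e-05). In FLCN KO mice it rose by 0.63 ± 0.25 (adjusted p = 0.0424). That call was lost when any of 7 of the 22 libraries was left out and in 6 of 12 other alternatives (adjusted p up to 0.433).

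**Figure D3:**
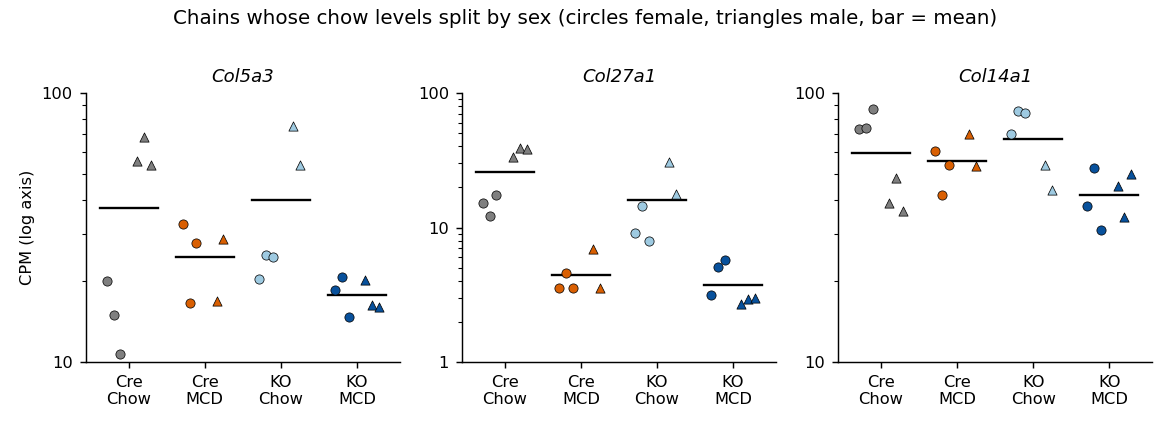
Level in CPM (y axis, log scale) of Col5a3, Col27a1 and Col14a1 in each library (x axis, the 4 groups), with circles for female mice, triangles for male mice and a bar at the group mean. On chow, the male libraries of both genotypes lie above the female ones for Col5a3 and Col27a1 and below them for Col14a1, and on MCD the sexes overlap for Col5a3 and Col14a1. The male chow libraries are also the low-mapping ones.

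Over the 8 tested fibrillar chains, 5 rose and 1 fell under MCD in the Cre genotype (median 1.31) and 1 rose and 3 fell in FLCN KO mice (median -0.61). Over all tested genes, these shares were 29.3% and 28.2% in Cre mice and 22.5% each way in FLCN KO mice. Their summed level was 121 ± 24.0 CPM in Cre Chow, 190 ± 68.9 CPM in Cre MCD, 146 ± 32.3 CPM in FLCN KO Chow and 83.4 ± 19.1 CPM in FLCN KO MCD. The 6 tested of 8 listed myofibroblast genes all rose with MCD in Cre mice (29.3% of all tested genes did). In FLCN KO mice 1 of the 6 rose (22.5%), and on MCD 5 of the 6 were lower in FLCN KO than in Cre mice (8.53%). The list summed to 37.7 to 79.3 CPM in Cre Chow, 144 to 183 CPM in Cre MCD, 71.5 to 199 CPM in FLCN KO Chow and 78.6 to 134 CPM in FLCN KO MCD, with Spp1, which bile duct cells also express, the most abundant. The 14 stellate cell genes, led by Dcn, summed to 638 CPM in Cre Chow, 846 CPM in Cre MCD, 686 CPM in FLCN KO Chow and 702 CPM in FLCN KO MCD on average. These genes did not move alike. With MCD 6 rose and 3 fell in Cre mice (29.3% and 28.2% of all tested genes). In FLCN KO mice 3 rose and 3 fell (22.5% each way), and on MCD 2 were lower in FLCN KO than in Cre mice (8.53%) and 0 higher (8.06%). The portal fibroblast genes, 9 of 10 tested and led by Gsn, summed to 29.2, 59.3, 43.1 and 38.5 CPM on average in the same order of groups. In Cre MCD 3 they stood at 134 CPM, and in the other Cre MCD libraries at 37.2 to 44.6 CPM. Of these 9 genes, 5 rose in Cre mice and 1 in FLCN KO mice. The part of these cell types in the collagen changes was not tested.

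Type IV collagen, the network of basement membranes, rose with MCD in both genotypes through its ubiquitous chains. Col4a1 ran from 29.9 to 46.7 CPM with a median of 34.6 CPM in the Cre Chow libraries and stood at 153, 109, 115, 122 and 85.4 CPM in the Cre MCD libraries. In the FLCN KO Chow libraries it stood at 37.9, 42.4, 43.8, 57.0 and 49.5 CPM, and in the FLCN KO MCD libraries it ran from 57.6 to 81.8 CPM with a median of 66.0 CPM. Every MCD library was above every chow library of its genotype, and every FLCN KO MCD library was below every Cre MCD library. Col4a1 rose by 1.71 ± 0.14 in Cre mice (adjusted p = 2.33e-09) and by 0.54 ± 0.14 in FLCN KO mice (adjusted p = 0.0034), with an interaction of -1.18 ± 0.20 (adjusted p = 0.00129).

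Col4a2, whose product pairs with that of Col4a1, ran from 19.7 to 24.5 CPM in Cre Chow and stood at 68.1, 54.9, 66.1, 65.9 and 44.1 CPM in the Cre MCD libraries. It stood at 28.6, 27.2, 30.5, 31.5 and 32.3 CPM in FLCN KO Chow and ran from 35.0 to 48.7 CPM in FLCN KO MCD. Neither diet comparison overlapped, and every FLCN KO Chow library was above every Cre Chow library. Col4a2 rose by 1.45 ± 0.11 in Cre mice (adjusted p = 5.76e-10) and by 0.44 ± 0.11 in FLCN KO mice (adjusted p = 0.00193), with an interaction of -1.01 ± 0.15 (adjusted p = 0.000706). The interactions of Col4a1 and Col4a2 were each not called in 1 of 11 other alternatives (adjusted p = 0.0622 and 0.0531). In the female libraries alone the rise in FLCN KO mice was 0.24 for Col4a1 and 0.29 for Col4a2 (adjusted p = 0.34 and 0.14). Col4a5, an X-linked chain of kidney and other basement membranes, rose in Cre mice (1.79 ± 0.37, adjusted p = 0.000329) and was at 0.70 ± 0.36 in FLCN KO mice (adjusted p = 0.119), with 1.64 in males alone (adjusted p = 0.0422).

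Col4a1 and Col4a2 lie head to head on chromosome 8 and are transcribed away from each other. Their first exons share the 22 bases between the start sites, chr8:11312805-11312826 of GRCm38, shown on the plus strand, the strand of Col4a2.
Col4a1 and Col4a2: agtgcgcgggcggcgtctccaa
The strand setting was not given, so how reads on these bases were counted is not known here. The bases make up 0.295% of the exonic length of Col4a1 and 0.332% of that of Col4a2. Per kilobase, the Col4a1 level was 1.58 ± 0.174 times that of Col4a2 in Cre Chow, 1.90 ± 0.185 in Cre MCD, 1.5 ± 0.176 in FLCN KO Chow and 1.60 ± 0.124 in FLCN KO MCD.

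Col4a3 and Col4a4, the chains of the specialized basement membrane of the kidney glomerulus, had the largest difference between genotypes on chow of all tested chains. Col4a3 ran from 0.135 to 0.432 CPM in the Cre Chow libraries (2 to 7 counts) and stood at 6.30, 3.33, 2.35, 5.35 and 6.74 CPM in the FLCN KO Chow libraries (35 to 125 counts). On MCD it stood at 0.206, 0.259, 0.281, 0.0485 and 0.256 CPM in Cre mice and ran from 0.286 to 0.830 CPM in FLCN KO mice. All FLCN KO Chow libraries were above all others. Col4a3 passed the filter (a mean of 23 counts over the 22 libraries) only through these libraries, as every other library had at most 17 counts. Its difference on chow, its fall in FLCN KO mice, its interaction and its place in the counts of called chains were therefore not independent of the filter. Col4a3 was higher in FLCN KO than in Cre mice on chow by 4.02 ± 0.36 (adjusted p = 1.84e-07) and on MCD by 1.22 ± 0.40 (adjusted p = 0.0421), the latter call lost when any of 8 of the 22 libraries was left out, and it fell with MCD in FLCN KO mice by 3.26 ± 0.33 on the log2 scale (adjusted p = 1.11e-07). The interaction was -2.81 ± 0.57 (adjusted p = 0.00486). It was not called in 1 of 10 other alternatives (adjusted p = 0.317), and the genotype difference on MCD was not called in 7 of 11.

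Col4a4 ran from 0.0677 to 0.618 CPM in Cre Chow (1 to 10 counts) and stood at 2.49, 0.951, 1.07, 4.03 and 3.40 CPM in FLCN KO Chow (16 to 73 counts). It stood at 0.700, 0.862, 0.750, 0.534 and 0.564 CPM in the Cre MCD libraries and ran from 0.465 to 1.12 CPM in FLCN KO MCD. The genotypes did not overlap on chow and overlapped on MCD. Col4a4 was higher in FLCN KO mice on chow (2.78 ± 0.42, adjusted p = 0.000144), fell with MCD in FLCN KO mice (-1.71 ± 0.38, adjusted p = 0.000819) and had an interaction of -2.69 ± 0.58 (adjusted p = 0.00713). The fall was not called in 1 of 11 other alternatives (adjusted p = 0.0569) and the interaction in 2 of 10 (adjusted p up to 0.113). At these counts the fitted fold changes depend on the few reads in Cre mice. In addition, 5.65% of the exonic length of Col4a3 is shared with the oppositely transcribed gene C430014B12Rik, and how reads on those bases were counted is not known here.

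The starts of Col4a3 and Col4a4 face each other on chromosome 1 with 71 bases between them, chr1:82586850-82586920 of GRCm38, shown because both genes were higher in FLCN KO than in Cre mice on chow, from RefSeq sequence on the minus strand, the strand of Col4a4.
Col4a3 to Col4a4 interval: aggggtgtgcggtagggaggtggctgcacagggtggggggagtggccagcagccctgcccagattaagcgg
Only the Col4a4 window of RefSeq was used here.

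**Figure D4:**
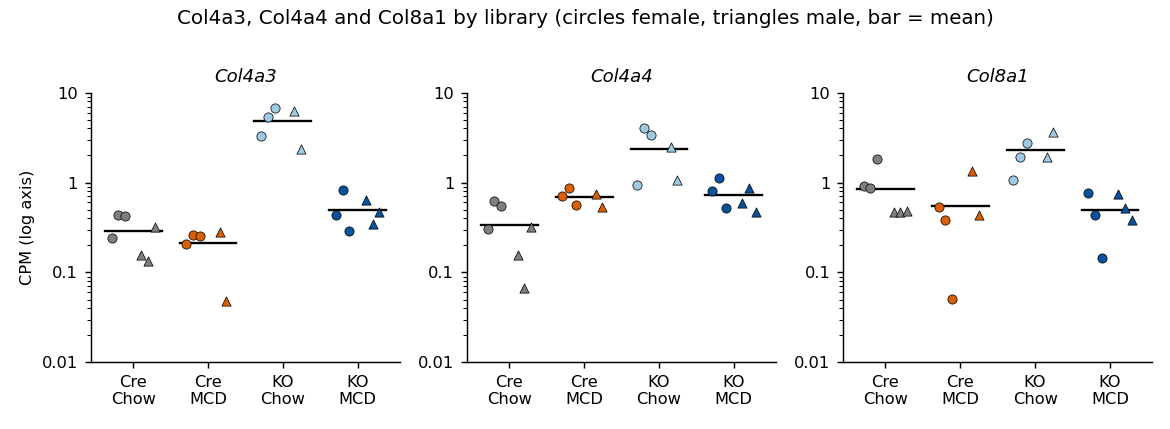
Level in CPM (y axis, log scale) of Col4a3, Col4a4 and Col8a1 in each library (x axis, the 4 groups), with circles for female mice, triangles for male mice and a bar at the group mean. For Col4a3 the FLCN KO Chow libraries lie between 2.35 and 6.74 CPM and every other library lies at or below 0.830 CPM, in both sexes. Col4a3 passed the count filter only through the FLCN KO Chow libraries.

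Over the 5 tested type IV chains, 3 rose with MCD in Cre mice, and 2 rose and 2 fell in FLCN KO mice. By comparison, 29.3% of all tested genes rose in Cre mice and 22.5% moved each way in FLCN KO mice. Their summed level was 59.5 ± 7.90 CPM in Cre Chow, 182 ± 33.4 CPM in Cre MCD, 86.0 ± 12.3 CPM in FLCN KO Chow and 113 ± 14.8 CPM in FLCN KO MCD. Cre MCD 1 was the highest library for Col4a1 and Col4a2, and without Cre MCD 1 and Cre MCD 3 both chains kept their calls with MCD in Cre mice. The 12 endothelial genes, led by Eng, summed to 344 CPM in Cre Chow, 304 CPM in Cre MCD, 402 CPM in FLCN KO Chow and 304 CPM in FLCN KO MCD on average, so this list was not higher on MCD. Of the 12, 2 rose and 4 fell in Cre mice (29.3% and 28.2% of all tested genes), and 0 rose and 8 fell in FLCN KO mice (22.5% each way). The 8 bile duct genes, led by Spp1, summed to 85.8, 184, 147 and 163 CPM in the same order of groups. With MCD 4 of these 8 rose in Cre mice and 1 in FLCN KO mice, and 0 fell in either. The part of both lists in the type IV changes was not tested.

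Among the FACIT chains, Col12a1, which coats type I fibrils under mechanical load, rose in both genotypes. It ran from 1.34 to 2.90 CPM in Cre Chow and stood at 7.62, 8.06, 6.98, 5.72 and 6.10 CPM in Cre MCD. In FLCN KO Chow it stood at 2.88, 1.72, 2.01, 2.21 and 2.16 CPM, and in FLCN KO MCD it ran from 4.48 to 8 CPM. Every MCD library lay above every chow library. The rise was 1.86 ± 0.19 in Cre mice (adjusted p = 4.63e-08) and 1.54 ± 0.19 in FLCN KO mice (adjusted p = 1.38e-06), with an interaction of -0.31 ± 0.26 (adjusted p = 0.508). Col12a1 was therefore the chain with a rise of over 1 on the log2 scale in both genotypes.

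Col20a1, a sparsely studied FACIT chain, fell in both genotypes, by 2.61 ± 0.39 on the log2 scale in Cre mice (adjusted p = 9.81e-06) and by 2.87 ± 0.39 in FLCN KO mice (adjusted p = 5.46e-06), from 0.964 to 3.34 CPM in Cre Chow to 0.172 to 0.656 CPM in Cre MCD. In the males alone the change in Cre mice was -1.80 (adjusted p = 0.0661). Col14a1, which binds fibrils through decorin, was the most abundant FACIT chain, at 59.6 ± 21.1 CPM in Cre Chow, 55.9 ± 10.5 CPM in Cre MCD, 67.4 ± 18.4 CPM in FLCN KO Chow and 41.8 ± 8.56 CPM in FLCN KO MCD. It fell with MCD in FLCN KO mice (-0.69 ± 0.22, adjusted p = 0.0141) and was at -0.09 ± 0.22 in Cre mice (adjusted p = 0.737). On chow, Col14a1 was higher in the female than in the male libraries of both genotypes without overlap (70.2 to 86.7 CPM against 36.4 to 53.9 CPM). Here too sex and mapping share cannot be told apart. The change of Col14a1 with MCD in Cre mice was -0.59 in females (adjusted p = 0.015) and 0.61 in males (adjusted p = 0.0359). In FLCN KO mice the change in males alone was -0.19 (adjusted p = 0.532). Col16a1, expressed by fibroblasts, missed the threshold in all comparisons, with 0.35 ± 0.25 in Cre and -0.51 ± 0.25 in FLCN KO mice (adjusted p = 0.226 and 0.0991). The rise in Cre males alone (1.07, adjusted p = 0.00527) and the fall in FLCN KO females alone (-1.08, adjusted p = 0.00135) did pass. On MCD every FLCN KO library lay below every Cre library for Col16a1 (-0.71 ± 0.25, adjusted p = 0.0514), a difference that passed in 7 of 12 other alternatives, DESeq2 and limma-voom among them (adjusted p = 0.0264 and 0.0371), and in 6 of 22 fits with 1 library left out.

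Type VI collagen forms beaded filaments around cells from the products of Col6a1, Col6a2 and Col6a3, and all of them rose with MCD in Cre mice and had an interaction with genotype. Col6a3 ran from 3.00 to 6.02 CPM in Cre Chow and stood at 20.5, 11.2, 20.3, 17.5 and 12.1 CPM in Cre MCD. In FLCN KO Chow it stood at 6.46, 8.14, 4.43, 14.2 and 11.7 CPM, and in FLCN KO MCD it ran from 5.25 to 11.7 CPM with a median of 8.15 CPM. The Cre diets did not overlap, and the FLCN KO diets did. Col6a3 rose in Cre mice by 1.84 ± 0.26 (adjusted p = 4.8e-06), was at -0.09 ± 0.26 in FLCN KO mice (adjusted p = 0.804) and had an interaction of -1.93 ± 0.37 (adjusted p = 0.00325). The Col6a3 interaction was not called in 1 of 11 other alternatives (adjusted p = 0.101). In the male libraries alone Col6a3 rose with MCD in FLCN KO mice too (0.83, adjusted p = 0.0439).

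Col6a1 rose by 1.36 ± 0.23 (adjusted p = 4.07e-05) and Col6a2 by 1.18 ± 0.28 (adjusted p = 0.00126) in Cre mice, against -0.05 ± 0.23 and -0.37 ± 0.28 in FLCN KO mice (adjusted p = 0.883 and 0.307). In the female libraries alone the rise of Col6a2 was 0.40 (adjusted p = 0.171). Their interactions were -1.41 ± 0.33 and -1.55 ± 0.40 (adjusted p = 0.011 and 0.0199). Neither interaction passed in the males alone (adjusted p = 0.0889 and 0.101), and that of Col6a2 was not called without Cre MCD 1 and Cre MCD 3 (-1.12, adjusted p = 0.0755) or with the replicate block (-1.34, adjusted p = 0.0637). Col6a1 was highest at 27.8 CPM in Cre MCD 3, the muscle-carrying library, with 12.1 to 16.3 CPM in the other Cre MCD libraries. On MCD both were lower in FLCN KO than in Cre mice (-0.73 ± 0.23 and -0.98 ± 0.28, adjusted p = 0.0308 and 0.019), and both calls were lost without Cre MCD 3 (-0.48 and -0.66, adjusted p = 0.121 and 0.082).

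Col18a1 was by far the most abundant chain, and it fell with MCD in both genotypes. It ran from 1085 to 1369 CPM with a median of 1260 CPM in the Cre Chow libraries and stood at 621, 515, 736, 639 and 598 CPM in the Cre MCD libraries. In the FLCN KO Chow libraries it stood at 1280, 1330, 1131, 1248 and 1136 CPM, and in the FLCN KO MCD libraries it ran from 722 to 1011 CPM with a median of 887 CPM. Every MCD library was below every chow library. Col18a1 fell by 1.01 ± 0.10 on the log2 scale in Cre mice (adjusted p = 7.27e-08) and by 0.47 ± 0.10 in FLCN KO mice (adjusted p = 0.000759). On MCD it was higher in FLCN KO than in Cre mice (0.51 ± 0.10, adjusted p = 0.0019), with 0.28 in the males alone (adjusted p = 0.442). The interaction was 0.54 ± 0.15 (adjusted p = 0.0259). This call was lost without Cre MCD 5 or FLCN KO Chow 5 and in 4 of the other alternatives, with 0.31 in the males alone (adjusted p = 0.747).

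The sum of all 24 tested chains was lower on MCD in both genotypes, at 1535 ± 113 CPM in Cre Chow, 1119 ± 192 CPM in Cre MCD, 1576 ± 102 CPM in FLCN KO Chow and 1165 ± 109 CPM in FLCN KO MCD. Without Col18a1 the sum was 285 ± 27.8, 498 ± 122, 351 ± 57.7 and 281 ± 39.8 CPM in the same order, so the sum in Cre mice was then higher on MCD, and that in FLCN KO mice was still lower. Per kilobase of mRNA, Col18a1 stood at 261 CPM in Cre Chow, against 10.5 CPM for Col14a1, 6.09 CPM for Col5a3, 5.38 CPM for Col4a1 and 4.90 CPM for Col3a1. The 10 hepatocyte genes, led by Alb, summed to 145080, 95798, 119900 and 77812 CPM on average in the same order of groups, and their part in the fall of Col18a1 was not tested.

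Col15a1, the other multiplexin and a chain of vascular and perineurial basement membranes, fell in both genotypes. It ran from 10.4 to 21.4 CPM in Cre Chow and stood at 6.22, 3.10, 13.8, 6.06 and 3.18 CPM in Cre MCD, the highest of these being the muscle-carrying library. In FLCN KO Chow it stood at 6.93, 5.76, 8.40, 7.55 and 12.4 CPM, and in FLCN KO MCD it ran from 0.573 to 3.18 CPM. It fell by 1.18 ± 0.36 in Cre mice (adjusted p = 0.00806) and by 2.26 ± 0.38 in FLCN KO mice (adjusted p = 6.38e-05) on the log2 scale, and was lower in FLCN KO than in Cre mice on MCD (-1.92 ± 0.38, adjusted p = 0.00153). In the females alone that last difference was -1.22 (adjusted p = 0.1), and in the males alone the change with MCD in Cre mice was -0.54 (adjusted p = 0.346).

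Col8a1, a network-forming chain of vessel walls, stood at 1.95, 1.07, 3.69, 1.93 and 2.75 CPM in FLCN KO Chow and ran from 0.143 to 0.757 CPM in FLCN KO MCD, a fall of 2.19 ± 0.49 on the log2 scale (adjusted p = 0.000902) without overlap. In Cre mice it was at -0.61 ± 0.51 (adjusted p = 0.319), and its interaction missed the threshold (-1.58 ± 0.71, adjusted p = 0.167). Without Cre MCD 3 the change in Cre mice was -1.23 (adjusted p = 0.0441). It was -1.81 in females (adjusted p = 0.0274) and 0.93 in males (adjusted p = 0.229), from 1.20 to 0.325 CPM and from 0.477 to 0.898 CPM on average. Col13a1, a transmembrane chain, passed no test, with diet changes of 0.17 ± 0.15 in Cre and 0.04 ± 0.16 in FLCN KO mice (adjusted p = 0.346 and 0.843) at 6.34 ± 0.607 CPM in Cre Chow.

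**Figure D5:**
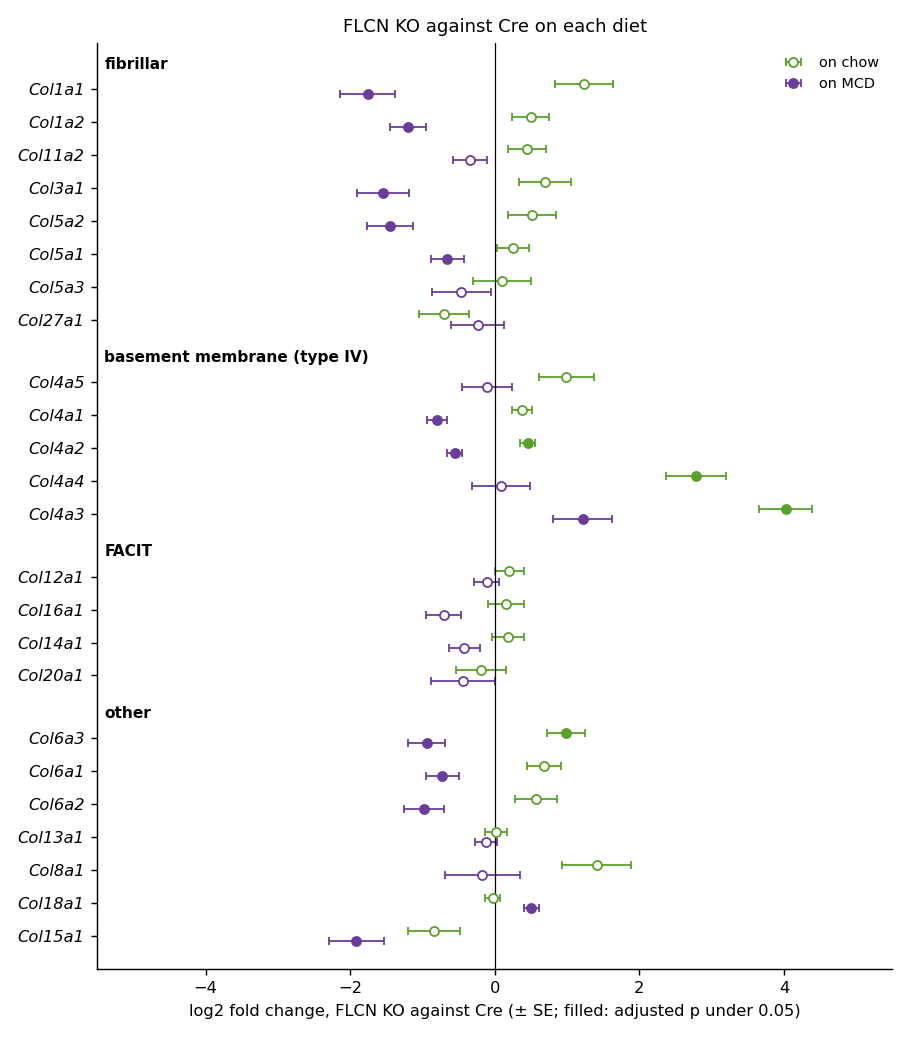
log2 fold change of each tested collagen chain in FLCN KO against Cre mice (x axis, ± SE) on chow (green) and on MCD (purple), grouped by class on the y axis, with filled points where the adjusted p was under 0.05. On chow 4 chains are filled, all to the right of 0, and on MCD 11 are filled to the left and 2, Col4a3 and Col18a1, to the right.

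Between genotypes on chow, 4 chains were higher in FLCN KO mice and 0 lower, against 5.52% and 3.1% of all tested genes, with a median of 0.45 against -0.03. Besides Col4a3 and Col4a4 these were Col4a2 (0.45 ± 0.11, adjusted p = 0.00963) and Col6a3 (0.98 ± 0.26, adjusted p = 0.0227), the last overlapping between genotypes. Col4a3 was tested only because of its counts in the FLCN KO Chow libraries, so its call on chow was not independent of the filter. Col4a2 was not called in either sex alone (0.51 in females and 0.42 in males, adjusted p = 0.0774 and 0.16). The Col6a3 call was lost when Cre Chow 1, FLCN KO Chow 4 or FLCN KO Chow 5 was left out, by limma-voom (adjusted p = 0.0784) and in the males alone (0.55, adjusted p = 0.422). Col1a1 was at 1.23 ± 0.40 (adjusted p = 0.0579). At an unadjusted p under 0.05 in edgeR 9 chains were higher and 1, Col15a1, was lower, against 12.1% and 11.4% of all tested genes. At the adjusted threshold DESeq2 and limma-voom also called 0 lower. Without Cre Chow 4 the count of higher chains was 8, but the share of all tested genes in that fit is not given here, so this count is not compared with it. On MCD, 2 chains were higher and 11 lower, against 8.06% and 8.53% of all tested genes, with a median of -0.51 against -0.01. The genotypes did not overlap for 3 chains above on chow (4.01% of all tested genes) and for 1 above and 4 below on MCD (5.08% and 3.53%). In the female and the male libraries alone, 8 and 10 chains were lower on MCD (7.88% and 2.82% of all tested genes), and 5 were without Cre MCD 1 and Cre MCD 3 (5.69%). Both diet comparisons and both genotype comparisons share libraries, so they are not independent of each other.

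The 20 chains under the threshold were rare in every group. Among fibrillar chains, Col24a1 reached 10 counts, Col11a1 2 and Col2a1 1 in their highest libraries. Among type IV and FACIT chains, Col4a6 reached 14 counts, Col9a3 16, Col22a1 28, Col9a2 4, Col9a1 1 and Col19a1 1. Among the others, Col7a1 reached 16 counts, Col28a1 7, Col26a1 1, Col6a6 13, Col6a5 20, Col6a4 2, Col8a2 15, Col25a1 9, Col23a1 13 and Col17a1 4, and Col10a1 had 0 counts in all 22 libraries. For Col4a6, Col22a1 and Col6a5 the highest count was in Cre MCD 3, the library with muscle RNA. Col7a1 and Col23a1 had their highest count both there and in 1 FLCN KO Chow library, 4 and 5 respectively.

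Collagen chains are folded, cut and linked by dedicated proteins. In the list for folding and modification in the endoplasmic reticulum, of which 21 of 23 genes were tested, 9 rose and 5 fell under MCD in the Cre genotype (median 0.58), and 4 rose and 8 fell in FLCN KO mice (median -0.19). Of all tested genes, 29.3% rose and 28.2% fell in Cre mice and 22.5% moved each way in FLCN KO mice. The falls in Cre mice and the rises in FLCN KO mice were near or below that share. The interaction called 6 of the 21 lower (5.54% of all tested genes). Serpinh1, the collagen chaperone HSP47, stood at 18.6, 13.3, 24.1, 15.3 and 11.8 CPM in Cre MCD and ran from 6.25 to 10.4 CPM in FLCN KO MCD, without overlap. It fell with MCD in FLCN KO mice (-1.0 ± 0.26, adjusted p = 0.0037), was at 0.58 ± 0.26 in Cre mice (adjusted p = 0.0645) and had an interaction of -1.58 ± 0.37 (adjusted p = 0.0122). In the males alone Serpinh1 was at -0.38 in FLCN KO mice (adjusted p = 0.341), and without Cre MCD 1 and Cre MCD 3 its interaction was -1.28 (adjusted p = 0.0506). Fkbp10, a chaperone of procollagen (1.88 ± 0.29), Plod2, a lysyl hydroxylase (1.44 ± 0.41), Creb3l1, a transcription factor of secretory cells (1.14 ± 0.27), and P3h2, a prolyl 3-hydroxylase (1.06 ± 0.31), rose in Cre mice (adjusted p from 1.1e-05 to 0.0057). The Plod2 rise was not called in the females alone (0.84, adjusted p = 0.162), without Cre MCD 1 and Cre MCD 3 (0.80, adjusted p = 0.134) or without the low-mapping chow libraries (1.09, adjusted p = 0.057). P4ha1, a prolyl 4-hydroxylase, fell in FLCN KO mice (-0.94 ± 0.16, adjusted p = 7.1e-05) and only just passed in Cre mice (-0.38 ± 0.16, adjusted p = 0.0499). The call in Cre mice was lost when any of 16 of the 22 libraries was left out. It was also lost in 7 of 12 other alternatives, among which the change ran from -0.65 to -0.03. P4ha2 was at -0.40 in Cre mice (adjusted p = 0.18) and fell in FLCN KO mice (-0.92 ± 0.25, adjusted p = 0.0047), with -0.63 in the females alone (adjusted p = 0.105).

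Among the 7 tested of 10 listed genes for propeptide processing, 4 rose and 2 fell in Cre mice (median 0.38) and 2 rose and 4 fell in FLCN KO mice (median -0.60). The shares of all tested genes that rose and fell were 29.3% and 28.2% in Cre mice and 22.5% each in FLCN KO mice. Adamts2, the procollagen N-proteinase, rose in Cre mice (0.99 ± 0.24, adjusted p = 0.0013) and fell in FLCN KO mice (-0.96 ± 0.24, adjusted p = 0.0027), with an interaction of -1.95 ± 0.34 (adjusted p = 0.0019). The Adamts2 interaction was not called in 1 of 11 other alternatives (adjusted p = 0.132). Pcolce, which enhances cleavage of the C-propeptide, was at 0.52 ± 0.19 and -0.76 ± 0.18 (adjusted p = 0.0196 and 0.0019). The Pcolce rise in Cre mice lost its call without Cre MCD 3 (0.43, adjusted p = 0.0613) and without the low-mapping chow libraries (0.17, adjusted p = 0.376), and in the females alone it was 0.0041 (adjusted p = 0.985). In the males alone the falls in FLCN KO mice were not called for Pcolce (-0.47, adjusted p = 0.0788) or Adamts2 (-0.47, adjusted p = 0.376). Adamts14 rose in both genotypes (2.38 ± 0.29 and 1.89 ± 0.28), and Bmp1, the C-proteinase, fell in both (-1.18 ± 0.12 and -0.77 ± 0.11, adjusted p at most 1.4e-05 for these 4 values). Pcolce2 fell in Cre mice (-1.03 ± 0.23, adjusted p = 0.00062). Sparc, a collagen-binding protein, was at 0.38 in Cre mice (adjusted p = 0.089) and fell in FLCN KO mice (-0.60 ± 0.19, adjusted p = 0.013), with -0.080 in the males alone (adjusted p = 0.73).

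Of the 6 crosslinking genes, all tested, 4 rose and 1 fell in Cre mice (median 1.06), and 1 rose and 1 fell in FLCN KO mice (median -0.17). The shares of all tested genes were 29.3% and 28.2% in Cre mice and 22.5% each way in FLCN KO mice. The lysyl oxidases Lox (2.58 ± 0.48), Loxl1 (1.58 ± 0.28) and Loxl2 (1.36 ± 0.36) rose in Cre mice, whereas Loxl4 fell in both genotypes (-2.80 ± 0.53 and -3.36 ± 0.54). The interaction passed the test for Loxl1 (-2.08 ± 0.39, adjusted p = 0.0031) and did not for Lox (-2.03, adjusted p = 0.0736). The Loxl1 call was lost in 1 of 10 other alternatives (adjusted p = 0.068). Loxl2 rose in FLCN KO mice too (0.93 ± 0.35, adjusted p = 0.0341), a call lost when FLCN KO Chow 1, 2 or 3 or FLCN KO MCD 2 or 4 was left out, and in the female libraries alone it was at -0.24 (adjusted p = 0.508).

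Of the 7 tested of 10 listed receptors, 3 rose in Cre mice (median 0.15), and 1 rose and 3 fell in FLCN KO mice (median -0.26). Of all tested genes 29.3% rose in Cre mice, and 22.5% moved each way in FLCN KO mice. Ddr1, a receptor tyrosine kinase that binds collagen, ran from 0.632 to 1.64 CPM in Cre Chow and stood at 11.2, 14, 6.47, 8.2 and 8.81 CPM in Cre MCD. It stood at 1.63, 2.67, 3.43, 10.1 and 4.47 CPM in FLCN KO Chow and ran from 5.82 to 14.2 CPM in FLCN KO MCD. The MCD levels of the genotypes overlapped, and the chow levels were higher in FLCN KO mice (1.94 ± 0.38, adjusted p = 0.002), which left a smaller rise with MCD (3.05 ± 0.37 in Cre and 1.14 ± 0.34 in FLCN KO mice, interaction -1.91 ± 0.50, adjusted p = 0.021). The rise in FLCN KO mice was 0.60 in the females alone (adjusted p = 0.221), and the interaction lost its call without FLCN KO Chow 4 (-1.36, adjusted p = 0.0519). The interaction also lost its call in 3 of 10 other alternatives, among which it ran from -2.43 to -0.87. The higher Ddr1 level on chow was not called in 1 of 11 other alternatives (adjusted p = 0.154). Mrc2, an endocytic collagen receptor, and Lair1, an inhibitory receptor of immune cells, rose in Cre mice (1.15 ± 0.31 and 1.04 ± 0.15). Ddr2, the receptor of fibroblasts, was at 0.15 in Cre mice (adjusted p = 0.57) and fell in FLCN KO mice (-0.59 ± 0.22, adjusted p = 0.0337). That call was lost when FLCN KO Chow 2 or 5 or FLCN KO MCD 2, 3 or 6 was left out and in the males alone (-0.11, adjusted p = 0.832). Itga1, the collagen-binding integrin chain of stellate cells, was at 0.01 and 0.17 (adjusted p = 0.94 and 0.18).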

How the data were processed

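mRNA-seq of 22 mouse livers was analysed, 1 library per mouse. The authors trimmed reads with Trimmomatic, aligned them to GRCm38 with STAR and deposited HTSeq counts, raw reads per gene for 55573 genes. The annotation release, tool versions, strand setting and any collapse of molecular identifiers were not given in the sources used here. With 1 library per mouse, errors cover the spread between libraries, in which differences between mice and amplification cannot be told apart. The 22 columns mapped to sample labels by name. From these counts, genes with a mean of at least 10 counts were kept, scaled by TMM and tested with edgeR 4.0.16 (R 4.3.3): 1 quasi-likelihood fit of the 4 groups, two-sided, Benjamini-Hochberg adjustment over the 14062 tested genes and a threshold of 0.05. SE is the absolute log2 fold change divided by the square root of the F statistic. Levels per kilobase used the longest principal coding transcript of GENCODE M21. Start-site sequences came from RefSeq (GRCm38.p6), where 19 of the 24 tested chains had a window.

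Collagen classes, pathway lists and cell type lists were chosen with earlier results of these data known. All tested chains were named, untested ones by their highest count, and from each pathway list up to 4 genes with the largest called change with MCD in Cre mice plus 14 genes chosen for their role. From each cell type list the most abundant gene is named. Of the lists not described beside a result, the macrophage genes (10 of 10, led by Cd5l) averaged 513, 625, 572 and 456 CPM in Cre Chow, Cre MCD, FLCN KO Chow and FLCN KO MCD, the mesothelium genes (5 of 6, led by Upk3b) 5.05, 13.6 (31.5 in Cre MCD 3 and 6.11 to 12.4 in the other libraries), 6.64 and 6.49 CPM, and the adipocyte genes (2 of 7, led by Cidec, with Lep at 0) 11.0, 122, 9.27 and 61.7 CPM. Sex was read from Xist and Ddx3y. Over 50 pairs within groups, Spearman correlations of counts were 0.939 to 0.994 and no 2 libraries were identical. Tested on simulated data for MCD against chow in Cre mice (13952 genes), edgeR recovered 70.0% of 100 genes changed 2-fold and 98.0% of 100 changed 4-fold. Only those genes were changed there, up and down alike, whereas 29.3% of all tested genes rose and 28.2% fell in the data. The recovery rates therefore do not describe the tests reported here. DESeq2 1.42.0, limma-voom (limma 3.58.1), other filters and scalings, covariates and left-out libraries were tried as alternatives.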

Additional observations from a re-analysis of the deposited data

Results flagged for a closer look

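Of 96 sets of libraries examined (24 chains in 4 groups), 4 had a highest library far from the rest, and chance alone puts about 1 in 20 sets past this limit. These were Col4a1 in Cre Chow 4 (46.7 CPM, next 35.5 CPM), Col8a1 in Cre Chow 4 (1.83 CPM, next 0.911 CPM), Col5a2 in FLCN KO MCD 4 (4.18 CPM, next 2.63 CPM) and Col6a1 in Cre MCD 3 (27.8 CPM, next 16.3 CPM), the library with muscle RNA.

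The response to MCD differed between genotypes, by the interaction test, for 12 chains. Of these 11 were lower and 1 higher, against 5.54% and 3.29% of all tested genes. The log2 interaction was -2.99 for Col1a1, -2.81 for Col4a3, -2.69 for Col4a4, -2.25 for Col3a1, -1.96 for Col5a2, -1.93 for Col6a3, -1.70 for Col1a2, -1.55 for Col6a2, -1.41 for Col6a1, -1.18 for Col4a1 and -1.01 for Col4a2. It was 0.54 for Col18a1, the only chain of the 12 with a positive value. Col4a3 passed the count filter only through the FLCN KO Chow libraries. In the male libraries alone, 3 chains had a lower response (0.412% of all tested genes).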

How the results depend on the processing

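The count of chains that rose with MCD in Cre mice stayed between 11 and 15 under every alternative run, and the count with a lower response in FLCN KO mice between 10 and 12 except in the male libraries alone (3). The libraries of 1 sex leave 2 or 3 mice a group. The fit without the low-mapping chow libraries leaves only females on chow and both sexes on MCD, so it mixes diet with sex. The medians that moved by more than the spread between mice were, for MCD in Cre mice (1.08), 0.75 without the low-mapping chow libraries, 0.80 without Cre MCD 1 and Cre MCD 3, 0.56 in females and 1.54 in males, and for MCD in FLCN KO mice (-0.49), -0.77 in females and 0.20 in males. The cause was not tested. The counts in FLCN KO mice with MCD were 6 lower with at least 10 counts in every library, where fewer chains are tested, 1 higher in females and 6 lower in males. On chow, 4 chains were higher in FLCN KO mice, with 7 by DESeq2, 2 with at least 10 counts in every library and 3 to 8 with 1 library left out, and 1 was lower when only the compared groups were fitted. Where no share of all tested genes is given for a fit, its counts describe the chains only and cannot be set against the other genes. On MCD, 2 chains were higher, with 1 by limma-voom, with no filter on low counts, with at least 10 counts in every library, with only the compared groups, in females and without Cre MCD 1 and Cre MCD 3, 0 in males, and 1 to 2 with 1 library left out. The 11 lower chains became 5 without Cre MCD 1 and Cre MCD 3. The single chain with a positive interaction, Col18a1, was not called (0) with no filter on low counts, without the low-mapping chow libraries and in males, and 0 to 1 chains were called with 1 library left out. Counting Col15a1 and Col18a1 as basement membrane chains moved that class's median from 1.45 to 0.98 and from 0.44 to -0.47 for MCD in Cre and FLCN KO mice, and from 0.99 to 0.45 on chow.

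Sign changes in which either value passed the test were Col5a3 with MCD in Cre mice (0.68 without the low-mapping chow libraries and 0.75 in females), Col14a1 with MCD in Cre mice (0.61 in males), and, with MCD in FLCN KO mice, Col3a1 (0.085 in males), Col6a3 (0.83 in males) and Loxl2 (-0.24 in females). Among sign changes in which neither value passed, in males alone Col8a1 with MCD in Cre mice was at 0.93, and with MCD in FLCN KO mice Col1a1 was at 0.55, Col16a1 at 0.39 and Col5a2 at 0.21. The fits by sex and without both libraries were chosen after seeing the data.

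Replicate numbers did not pair the samples: 6 of 20 same-numbered pairs had deviations correlated above 0.1. With the replicate block, 1 chain was higher on MCD and 0 had a positive interaction, and the call was lost for Col3a1 (MCD in FLCN KO mice), Col6a3 (chow), Col6a1, Col6a2, Col5a1 and Col4a3 (MCD) and Col18a1 and Col6a2 (interaction).

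Leaving out 1 library ended a call for Col11a2 (FLCN KO Chow 1, 2, 3 and 5, FLCN KO MCD 2, 3 and 5) and Col3a1 with MCD in FLCN KO mice (Cre Chow 1, 2, 3 and 5, Cre MCD 1 and 4, FLCN KO Chow 2, 4 and 5, FLCN KO MCD 1, 2, 3, 5 and 6), and, between genotypes on MCD, for Col5a1 (Cre Chow 5, Cre MCD 1, 3 and 4, FLCN KO Chow 1, 2 and 4, FLCN KO MCD 1, 2, 3, 4 and 6), Col4a3 (Cre MCD 1, 2, 4 and 5, FLCN KO MCD 1, 3, 4 and 5) and Col6a1 (Cre MCD 3 and 4, FLCN KO MCD 2, 4 and 6). At 1 to 20 counts per library, Col4a3 and Col4a4 in Cre mice are limited by depth.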
